A study of Mus musculus with 99 samples.

Results

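The genes described here encode solute carriers, a large superfamily of membrane proteins, together with 2 genes that share the symbol pattern without being transporters. Of 252 genes on the array whose platform symbol reads Slc, a number and a letter, 131 were taken: Slc8a1, Slc2a4 and Slc4a1 were left out by name, and 118 had a mean level at or below 3.59 log2 units, the 40th percentile of all probe-set means. The brightest probe set stood for each gene. The mean level chose the genes, so their levels are a description without a test, and only differences between strains were tested. Just above the threshold lay Slc22a4 at a mean level of 3.60, Slc26a3 at 3.60 and Slc16a11 at 3.60 log2 units, and just below it Slc14a2 at 3.58, Slc22a12 at 3.57 and Slc30a3 at 3.57. Slc9a3r1 and Slc9a3r2 fit the pattern but encode scaffold proteins that bind transporters.

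Solute carriers move ions, sugars, amino acids, fatty acids, metals and nucleotides across membranes, mostly by coupling one solute to another or by letting it follow its own gradient. Family 25 lies chiefly in the inner mitochondrial membrane, where its members exchange adenine nucleotides, phosphate, acylcarnitines and amino acids with the cytosol. Heart muscle depends on these exchanges for its ATP, and on the plasma membrane carriers for lactate, glucose, creatine, bicarbonate and carnitine.

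RNA from the hearts of untreated male mice on a chow diet was measured on Affymetrix HT_MG-430A arrays, 1 per inbred strain and 99 in all, to map expression across strains. The growth protocol gives an age of 16 weeks for all mice, whereas the per-sample age labels rise above that along the sample order. They comprised 28 classical inbred strains, 11 strains of the BXH panel, 30 of BXD, 15 of AXB and 13 of BXA, as well as B6cC3-1/KccJ and the wild-derived CAST/EiJ. The 4 panels are recombinant inbred: each strain is a fixed mixture of C57BL/6J with C3H/HeJ (BXH), DBA/2J (BXD) or A/J (AXB and BXA). A pair of the BXD labels names a mutant allele: BXD24/TyJ-Cep290<rd16>/J, in a ciliary gene, and BXD29-Tlr4<lps-2J>/J, in the endotoxin receptor gene. Among the classical strains, the label BTBR T<+> tf/J names alleles too. Arrays of near-isogenic strains count as 1 family, so that BXD has 29 families and AXB and BXA together have 26. With 1 array per strain, p-values rest on differences among strains, to which technical variation adds.

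The 11 heart muscle markers on the array had a mean between 12.68 and 12.91 log2 units on every array. Markers of another organ stood more than 2 log2 units above their median array on 39 of the 99 arrays: airway on 28, liver on 12, fast skeletal muscle on 9, squamous epithelium on 4, thymus on 3 and thyroid on 0. These arrays made up 8 of the 11 BXH, 10 of the 30 BXD, 10 of the 28 AXB and BXA and 10 of the 28 classical strains. The Gapdh control difference between 3′ and 5′ probe sets, a measure of RNA integrity, averaged -0.31 ± 0.11 (SD, n = 11) in BXH, -0.22 ± 0.08 (SD, n = 30) in BXD and -0.31 ± 0.08 (SD, n = 28) on the AXB and BXA arrays. In a bulk heart sample, fewer cells of a type and less RNA per cell cannot be told apart.

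The brightest of the solute carrier probe sets belonged to mitochondrial carriers. A probe set's signal depends on its probes, so the levels given here do not rank transcript amounts between genes. Slc25a4, the main ADP/ATP exchanger of the heart, had a mean of 13.21 log2 units and lay between 13.06 and 13.31 on all 99 arrays. Slc25a3, the mitochondrial phosphate carrier, had a mean of 12.54 and a range of 12.30 to 12.69. Slc25a39, which supplies mitochondria with glutathione, followed at 10.98, Slc25a20, the carnitine and acylcarnitine carrier, at 10.78, Slc25a13, an aspartate and glutamate carrier, at 9.77, and Slc25a5, a second ADP/ATP exchanger, at 9.68. The other 4 of the 10 brightest sit in the plasma membrane: the chloride and bicarbonate exchanger Slc4a3 at 9.71, the phosphate importer Slc20a2 at 9.48, the creatine transporter Slc6a8 at 9.47 and the amino acid transporter Slc38a2 at 9.13.

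**Figure D1:**
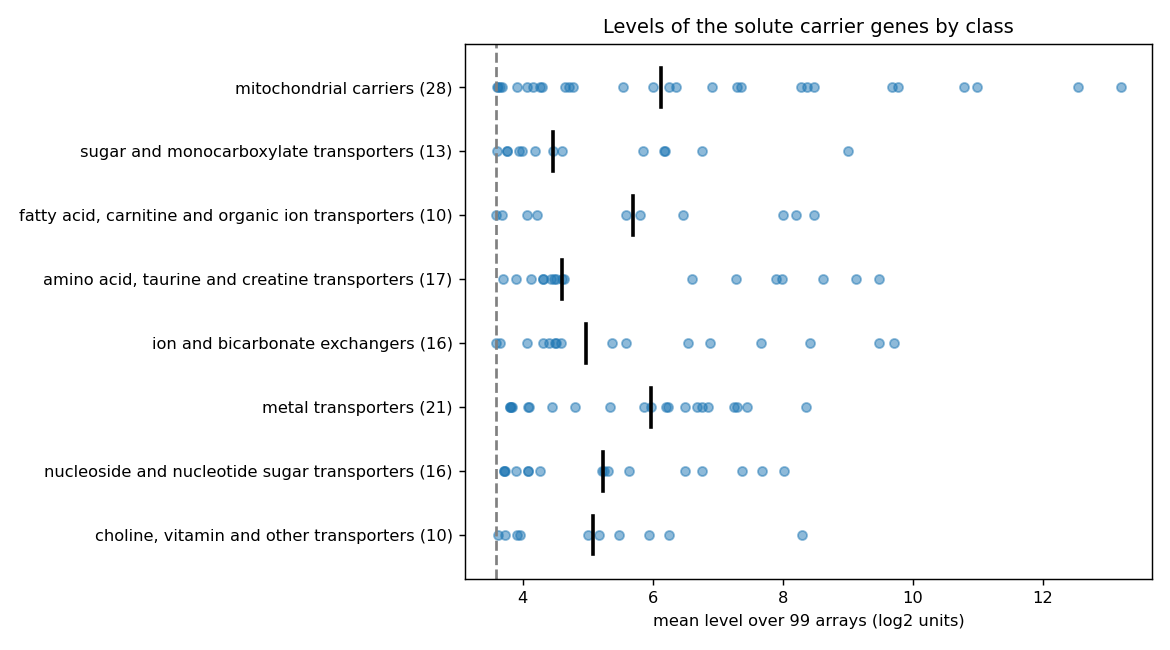
Mean level over 99 arrays (log2 units, horizontal axis) of each of the 131 solute carrier genes, 1 point per gene, in 8 transport classes with the number of genes in parentheses; black bars mark class medians and the dashed line the threshold of 3.59. Mitochondrial carriers reach furthest to the right, to 13.21, and every class holds genes close to the threshold.

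By transport class, 28 of 31 mitochondrial carriers on the array passed the threshold and had a median mean level of 6.13 log2 units. Of the metal transporters 21 of 26 passed, led by the iron exporter Slc40a1 at 8.36 and the haem transporter Slc48a1 at 7.45. The nucleoside and nucleotide sugar class kept 16 of 24, with Slc35f5 at 8.03 and the endoplasmic reticulum carrier Slc35b1 at 7.68. The ion and bicarbonate class kept 16 of 40. Amino acid, taurine and creatine transporters kept 17 of 47. Sugar and monocarboxylate transporters kept 13 of 32, led by the lactate transporter Slc16a1 at 9.00 and by Slc50a1, a sugar transporter, at 6.75. The fatty acid, carnitine and organic ion class kept 10 of 28, with the fatty acid transport protein Slc27a1 at 8.48 and the carnitine transporter Slc22a5 at 8.20. The choline, vitamin and other class kept 10 of 24, with the choline transporter-like Slc44a2 at 8.30 and the choline transporter Slc44a1 at 6.25. The median mean level was 5.31 log2 units over the 131 genes and 6.08 over all 7513 genes above the same threshold.

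Members of a class did not vary together across strains: the median Spearman correlation between pairs of genes lay between -0.04 and 0.06 in the 8 classes. That is a description over genes measured on the same arrays.

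The solute carrier genes spread between classical strains about as widely as other genes. The median SD over the 28 classical strains was 0.25 log2 units (jackknife SE over strains 0.022) for the 131 genes and 0.23 for all 7513 genes. An SD of at least 0.5 was found for 5 of the 131 genes, which is 3.82%, against 6.92% of all genes, and an SD of at least 0.4 for 19, which is 14.5%, against 12.8%. The near-isogenic families AXB19 (3 arrays) and BXD24 (2 arrays, 1 of them the Cep290 mutant) come closest to replicates, and the median SD within them was 0.22 for these genes and 0.20 for all genes. The median gene thus spread little more between classical strains than between these few near-isogenic arrays. AXB19/PgnJ, 1 of the AXB19 arrays, carried raised liver and thymus markers, and their part in the SD within families was not tested.

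The 2 brightest probe sets also had the smallest SDs. Slc25a4 had an SD of 0.050 and Slc25a3 of 0.074 among the classical strains. Both lie near the top of the range of the whole table, where signals can be compressed, so these SDs do not show how stable the transcripts are. Another Slc25a4 probe set, with a mean of 5.04, had an SD of 0.20 and differed between the parents by -0.41 in BXD and -0.84 in BXH. The brightest were followed by Slc25a35 at 0.11, and by Slc37a3, the lipocalin receptor Slc22a17 and Slc35b1, each at 0.14. Slc25a35, Slc37a3 and Slc22a17 have mean levels of 3.61, 3.76 and 3.69 log2 units, close to the threshold, where a small SD says little. Slc35b1 was as narrow in the panels, with SDs of 0.14 in BXD and 0.15 in BXH.

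The promoter of the gene with the brightest probe set is shown for comparison with those of variable genes further on. It gives the 120 bases before the annotated start on the minus strand, from RefSeq's GRCm38.p6, at chr8:46211063-46211182, with each CCAAT box (CCAAT or, on the other strand, ATTGG) in capitals.

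Slc25a4: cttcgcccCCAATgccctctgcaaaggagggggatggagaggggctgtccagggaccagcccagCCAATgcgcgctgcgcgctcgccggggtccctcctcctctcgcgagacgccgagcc

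A CCAAT box lay within the 250 bases before the start in 36.6% of the 101 solute carrier promoters with an entry and in 36.1% of 6098 promoters of all genes. The GC box (GGGCGG or CCGCCC) was found in 67.3% and 60.4%, and at least 10 CpG dinucleotides in 77.2% and 74.9%.

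**Figure D2:**
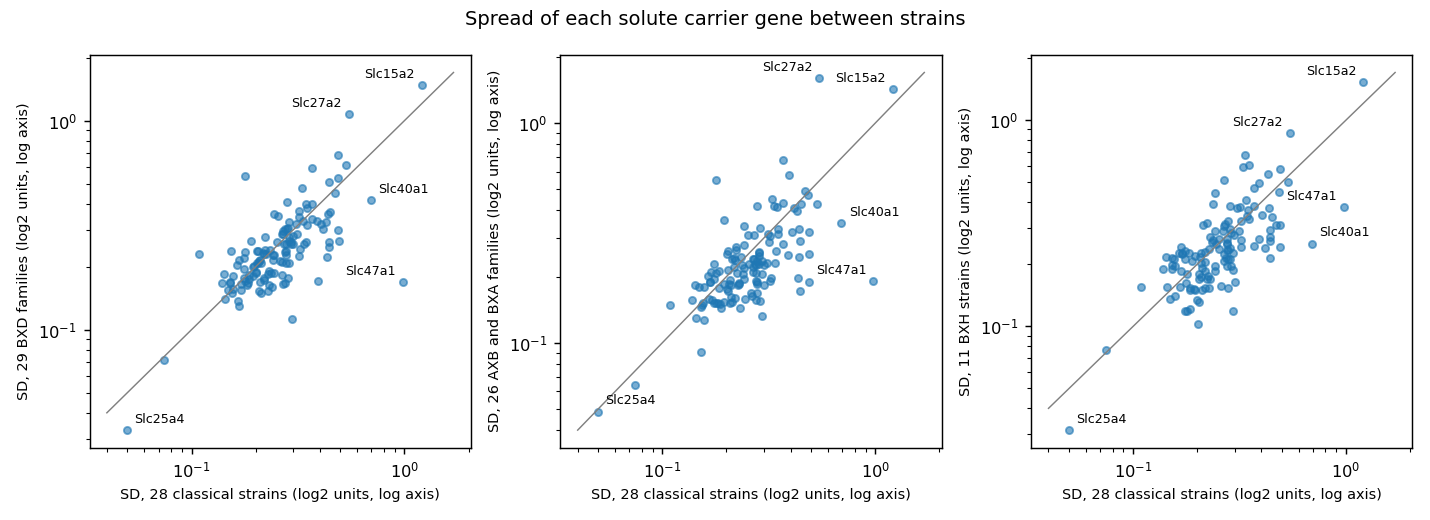
SD of each of the 131 solute carrier genes (points, log2 units, log axes) over the 28 classical strains (horizontal) against its SD in 29 BXD families, 26 AXB and BXA families and 11 BXH strains (vertical, left to right); the line marks equal SD. Slc15a2 lies at the top in BXD and BXH, Slc25a4 at the bottom left, and Slc47a1 and Slc40a1 lie below the line in all 3 plots.

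Among the classical strains, in BXD and in BXH, the gene of largest spread was Slc15a2, which encodes PEPT2, a proton-coupled transporter of small peptides. Its SD was 1.21 log2 units over the classical strains and between 1.43 (AXB and BXA, where Slc27a2 spread more) and 1.52 (BXH) in the panels. Among the classical strains the level ran from 2.88 through a median of 3.40 to 6.72. Of these strains 5 stood apart at the top, FVB/NJ at 6.72, C58/J at 6.69, SWR/J at 6.37, CE/J at 6.12 and NON/ShiLtJ at 5.77, and no other exceeded 4.01.

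All the panels held strains of both kinds. Slc15a2 ran from 2.84 through 3.56 to 7.06 in BXD, from 2.80 through 3.76 to 7.07 in the AXB and BXA families, and in BXH from 2.96 through 3.83 to 7.01. It exceeded 5 log2 units in 10 of 29, 9 of 26 and 4 of 11 families. The parents were all low: C57BL/6J had a level of 4.01, DBA/2J of 3.63, A/J of 3.22 and C3H/HeJ of 3.24. Thus 10 BXD, 9 AXB and BXA and 4 BXH families lay more than 1 log2 unit above both of their parents. The best split of each panel gave group means of 3.51 and 6.34 in BXD, 3.35 and 6.05 for AXB with BXA, and 3.36 and 6.08 for BXH. The split and the level of 5 were chosen after the values were seen, and 4 BXD families, 1 AXB or BXA family and 1 BXH strain fell between 4 and 5.

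Near-isogenic strains fell on the same side for Slc15a2. AXB19/PgnJ, AXB19a/PgnJ and AXB19b/PgnJ had levels of 6.80, 6.07 and 5.61, and the BXD24 pair 3.71 and 3.41. The AXB19 arrays were all high and the BXD24 arrays both low. AXB19/PgnJ carried raised liver markers and the highest thymus list of the 99 arrays, at 7.47 log2 units. The gene's other probe set had a mean of 3.26, under the threshold, and followed the first with a Pearson r of 0.06 over the 99 arrays, so the pattern rests on 1 probe set.

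Organ markers were equally frequent in both kinds of array: 12 of the 30 arrays with Slc15a2 above 5 (40%) and 27 of the other 69 (39.1%) carried markers of another organ. With the liver list, Slc15a2 had a Pearson r of 0.15 (permutation p adjusted over 238 relations 0.44) and a Spearman rho of 0.29 (adjusted p 0.068) over 96 families, and r was 0.19 without the 2 families farthest from the median. Over the 85 families without raised liver markers, r was 0.30 and rho 0.36 (permutation p adjusted over 6 genes 0.018 and 0.0016). Of the 8 liver genes on the array, Cyp2e1 had the highest median, 6.92 log2 units, and ran from 3.28 to 10.75. The next, Apoa2, had a median of 4.77. How far Cyp2e1 alone moves the list on arrays without raised liver markers was not tested. The part of liver RNA in the Slc15a2 levels was not tested either. The Slc15a2 start region is shown because this gene carries the largest spread among the classical strains, with the hexamer of the glucocorticoid receptor (AGAACA or TGTTCT, 8.91% of solute carrier and 10.8% of all promoters) in capitals. It lies at chr16:36784963-36785082 on the minus strand of GRCm38.p6.

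Slc15a2: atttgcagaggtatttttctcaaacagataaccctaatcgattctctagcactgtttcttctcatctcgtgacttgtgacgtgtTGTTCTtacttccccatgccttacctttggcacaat

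**Figure D3:**
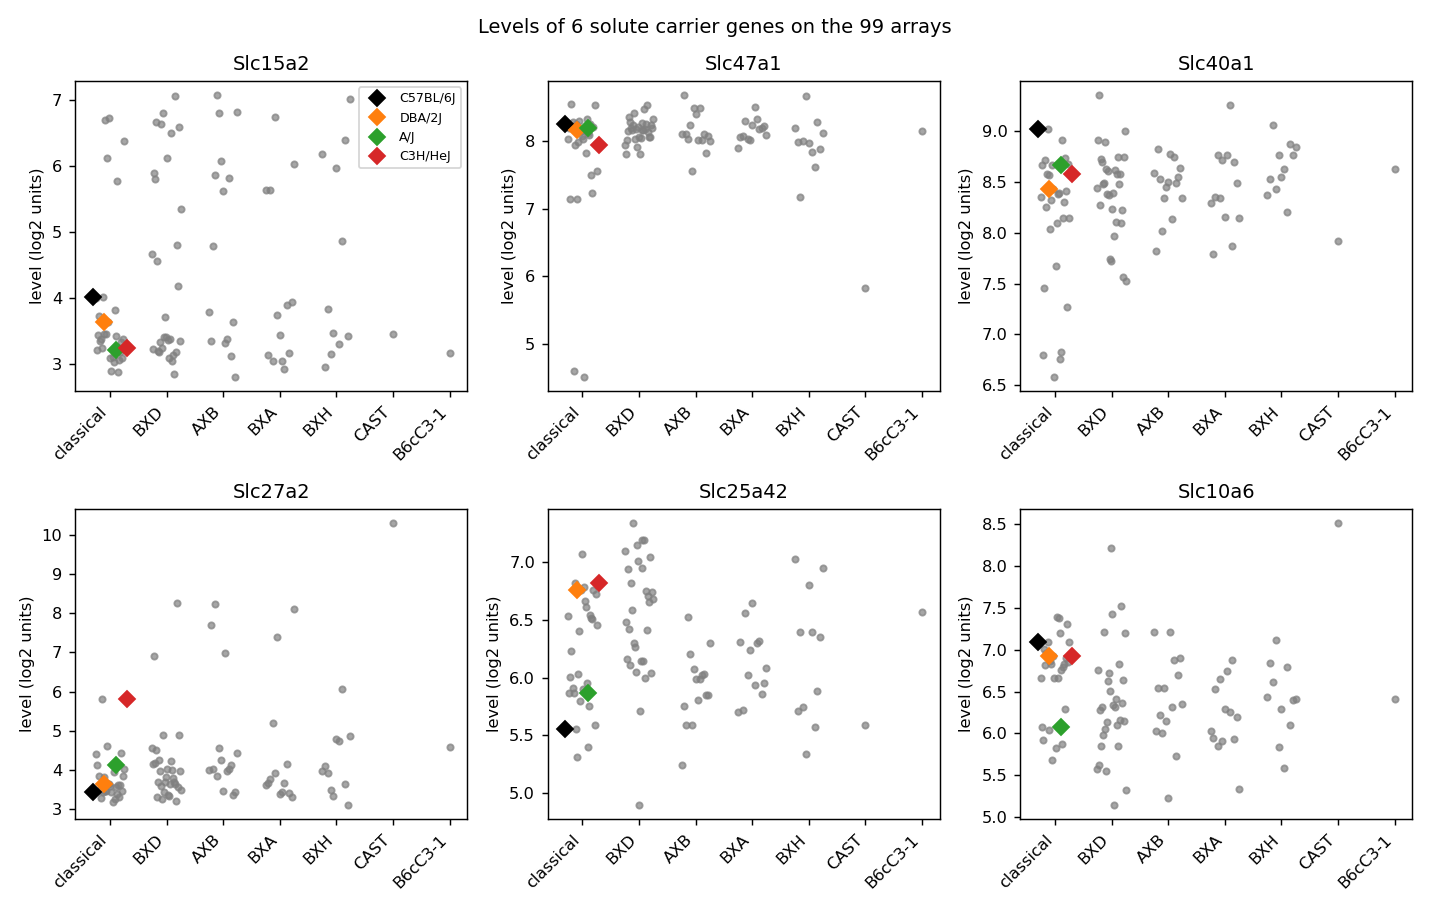
Level (log2 units, vertical axis, a separate scale per plot) of 6 solute carrier genes on each of the 99 arrays, grouped by panel; grey points are arrays and diamonds repeat the 4 parental strains. Slc15a2 falls into a low and a high set in every panel although its parents lie between 3.22 and 4.01, whereas the low values of Slc47a1 belong to 2 classical strains at 4.50 and 4.60 and to CAST/EiJ.

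Slc47a1 and Slc40a1 varied mainly among the classical strains. Slc47a1 encodes MATE1, which exports organic cations in exchange for protons. Its level was 4.50 in KK/HlJ and 4.60 in BUB/BnJ, and between 7.14 and 8.56 in the other 26 classical strains, whose lowest was AKR/J. No panel array approached the low pair: the SD was 0.38 in BXH, 0.17 in BXD and 0.19 in the AXB and BXA families, against 0.98 in the classical strains. The gene has 1 probe set.

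Slc40a1 encodes ferroportin, the cellular iron exporter. Its classical values ran from 6.58 through a median of 8.34 to 9.03 in C57BL/6J. The lowest were FVB/NJ at 6.58, MA/MyJ at 6.76, AKR/J at 6.80 and NOD/ShiLtJ at 6.82, followed after a gap by a strain at 7.27. A second probe set of the gene, with a mean of 7.49, followed the first with a Pearson r of 0.80 over the 99 arrays and 0.92 over the classical strains, so both probe sets show these low strains. Panel SDs were 0.42, 0.35 and 0.25 in BXD, AXB with BXA, and BXH.

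Slc27a2, a very long chain acyl-CoA synthetase known from liver and kidney, had an SD of 0.55 among the classical strains and of 1.07, 1.61 and 0.86 in BXD, AXB with BXA, and BXH. On the 12 arrays with raised liver markers its level ran from 4.10 through a median of 7.14 to 10.31, and on the other 87 from 3.11 through 3.69 to 6.99 in AXB2/PgnJ. The ranges overlapped, and the medians lay more than 3 log2 units apart. Over 96 families its Pearson r with the liver list was 0.82 and its Spearman rho 0.53 (both at the smallest permutation p of 1e-05, adjusted over 238 relations 0.00040 and 0.00059), and r was 0.75 without the 2 farthest families. Over the 85 families without raised liver markers r was 0.23 and rho 0.37 (permutation p adjusted over 6 genes 0.048 and 0.0016). As for Slc15a2, the part of Cyp2e1 in these 2 values was not tested. Slc27a2 also followed the brown fat list, with r of 0.38 and rho of 0.67 (adjusted permutation p 0.0090 and 0.00059). Among the classical strains, none of which had raised liver markers, Slc27a2 was highest in C3H/HeJ at 5.82, where the liver list was at 3.77, and next in CE/J at 4.62.

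The next 8 genes had SDs between 0.44 and 0.53. They were the pyrimidine nucleotide carrier Slc25a33 (SD 0.53, from 6.22 in LG/J to 8.35 in LP/J), Slc44a2 (0.49, from 7.60 in NON/ShiLtJ to 9.32 in MA/MyJ), and the S-adenosylmethionine carrier Slc25a26 (0.49, from 5.35 in C58/J to 7.03 in NOD/ShiLtJ). The coenzyme A carrier Slc25a42 had an SD of 0.49, with C57L/J lowest at 5.31 and FVB/NJ highest at 7.07. The steroid sulfate transporter Slc10a6 also had an SD of 0.49, from 5.68 in CE/J to 7.39 in KK/HlJ. The magnesium transporter Slc41a3 (0.47, 5.81 to 7.83), the monocarboxylate transporter Slc16a6 (0.45, 3.76 to 5.60) and the mitochondrial glycine carrier Slc25a38 (0.44, 3.31 to 5.47) completed the 12 most variable. For Slc10a6, 7 strains lay at 6.29 or less and the others at 6.66 or more. For Slc25a38, 2 strains lay at 3.70 or less and the others at 4.23 or more. Of the 131 genes, 10 had a gap of at least 0.5 log2 units between neighbouring classical strains, which is 7.63%, against 8.70% of all genes. Chosen after their values were seen, Slc25a39 owed its gap of 1.07 to the NZW/LacJ array alone, at 9.63 against 10.70 or more elsewhere, and the sugar phosphate exchanger Slc37a1 had 2 strains, LP/J at 5.83 and NOD/ShiLtJ at 5.80, above the rest at 4.89 or less.

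Ranked by SD, the genes kept much of their order between the classical strains and the panels. Spearman's rho across the 131 genes was 0.70 for BXD, 0.65 for AXB with BXA and 0.70 for BXH. That is a correlation across genes, which are not independent, and the panels share the parent C57BL/6J with the classical set.

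Other probe sets gave a mixed picture of these patterns. Above the threshold, 64 other probe sets of 46 of the genes had a median Pearson r of 0.35 with the brightest one over 99 arrays, the same as the 0.35 over 3362 such probe sets of all genes. The correlation exceeded 0.5 for 24 of them and was below 0 for 4. The lowest, -0.63, was between probe sets of Slc25a51, the mitochondrial NAD carrier, named here after its values were seen. For Slc41a3 and Slc44a2 the second probe set followed the first at 0.92 and 0.79.

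Several variable genes shared their strain pattern with genes outside the family. Likeness was measured by Spearman's rho over the 96 families, and the 5 closest of all genes were taken. Slc10a6 was most like Cebpd at 0.84, followed by Tiparp at 0.72, Cdkn1a at 0.66, Cebpb at 0.66 and Ddit4 at 0.62. Slc27a2 was most like the apolipoprotein gene Apoc1 at 0.77, Rbp4 at 0.67 and the brown fat gene Ucp1 at 0.65. Slc25a33 was most like Klf15 at 0.56 and its chromosomal neighbour Spsb1 at 0.55. Slc15a2 had no close companion, its highest value being -0.49 with Gm5617. The Slc10a6 start region lies at chr5:103629404-103629523 on the minus strand of GRCm38.p6. It is printed because it held none of the searched motifs in these 120 bases, and so no capitals. Within the 250 bases used for the shares above, the hexamer of the glucocorticoid receptor was present. The search covered the TATA box TATAAA on the gene's strand and, on both strands, the GC box, the CCAAT box, the hexamer above, the E-box (CACGTG), the cyclic AMP response element (TGACGTCA) and the C/EBP motif (TTGCNNAA).

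Slc10a6: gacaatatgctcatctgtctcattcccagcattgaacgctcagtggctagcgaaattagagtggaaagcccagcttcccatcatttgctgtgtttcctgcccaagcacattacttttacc

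In the panels, a gene was counted as segregating when its parents differed by at least 1 log2 unit and at least 20% of the families lay on each side of the parental midpoint. Each parent had 1 array, so the counts are descriptions. The parents differed that much for 3 of the 131 genes in BXD (2.29%, against 4.55% of all genes), for 2 in AXB and BXA (1.53%, against 2.72%) and for 3 in BXH (2.29%, against 4.55%). Both conditions were met by 3 genes in BXD (against 3.14% of all genes), 1 in AXB and BXA (0.763%, against 2.14%) and 3 in BXH (against 3.35%). These shares lay below those of all genes.

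Slc25a42 met it in BXD and in BXH. C57BL/6J had a level of 5.55, DBA/2J of 6.76 and C3H/HeJ of 6.82. The BXD families ran from 4.90 through 6.58 to 7.34, with 21 of 29 above the midpoint, and the BXH strains from 5.34 through 6.35 to 7.03, with 6 of 11 above it. Both panels thus covered the whole range between their parents. Within BXD the genes most like it were Rex1bd at a rho of 0.78 and Rab3a at 0.73, both annotated within 50 genes of it, and Ocel1 at 0.76 on the same chromosome. The Slc25a42 start region, at chr8:70212282-70212401 on the minus strand of GRCm38.p6, is shown with its CCAAT boxes in capitals, for comparison with Slc25a4 on the same chromosome.

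Slc25a42: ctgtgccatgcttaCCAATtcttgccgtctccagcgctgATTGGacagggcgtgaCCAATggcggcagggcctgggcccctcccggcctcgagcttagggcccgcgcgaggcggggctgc

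The other segregating genes in BXD were Slc20a1, a phosphate importer, and Slc2a3, the glucose transporter GLUT3. The C57BL/6J array had a Slc20a1 level of 6.18 and the DBA/2J array of 7.37, and 7 of 29 families lay above the midpoint. Slc2a3 had 3.57 and 4.81, and 6 of 29 families lay above the midpoint. They ran from 3.63 through 3.90 to 4.67, also short of the DBA/2J array. Families were on the C57BL/6J side more often in both. Slc2a3 is the only segregating gene here with another probe set above the threshold, whose parental difference had the same sign and a size of 0.60.

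In AXB and BXA, Slc10a6 had a level of 7.09 in C57BL/6J and 6.08 in A/J, and 8 of 26 families lay above the midpoint. Slc24a3, a potassium-dependent sodium and calcium exchanger, differed as much, at 4.04 and 5.34, but only 2 of 26 families lay above the midpoint. In BXH the same gene had 5.29 in C3H/HeJ and 3 of 11 strains above the midpoint. Slc27a2 met the rule in BXH too, with parents at 3.43 and 5.82 and 4 of 11 strains above the midpoint. Markers of another organ were raised on 8 of the 11 BXH arrays, and without them 1 gene met the rule in BXH.

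Splits that ignored the parents gave 5 genes per panel with group means at least 1 log2 unit apart, which is 3.82%, against 3.47%, 3.33% and 3.55% of all genes in BXD, AXB with BXA, and BXH. Slc15a2 and Slc27a2 were among them in all 3. In AXB and BXA they also included Slc25a51, with 8 families at a mean of 7.44 and 18 at 8.57. Such splits were chosen on the values and carry no test.

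Panels were then compared with limma over all 7513 genes, one value per family, with p-values adjusted by Benjamini and Hochberg over all of them. Between BXD and the families of AXB and BXA, 23 of the 131 solute carrier genes passed an adjusted p of 0.05, which is 17.6%, against 14.6% of all genes. Of these 16 were higher in BXD (8.59% of all genes were) and 7 lower (6.04%). The differences were small, 0.12 to 0.60 log2 units, and the groups overlapped for each gene named below.

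Slc46a3, a lysosomal transporter, had the largest difference. It ran from 5.76 through 6.30 to 7.26 in BXD and from 4.84 through 5.67 to 6.33 in AXB and BXA. The BXD families were higher by 0.60 log2 units (SE 0.09, 1.52-fold, adjusted p 1.15e-05). Slc25a42 was higher by 0.49 (SE 0.12, adjusted p 0.0027), its BXD median being 6.58 and the other 6.00. Slc44a2 was higher by 0.34 (SE 0.06, adjusted p 9.82e-05), with medians of 8.39 and 8.13. These 3 genes encode a lysosomal, a mitochondrial and a choline-related carrier.

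Slc38a1, a sodium-coupled neutral amino acid transporter, was the most reduced. It ran from 3.30 through 3.70 to 4.67 in BXD and from 3.60 through 4.31 to 5.60 in AXB and BXA. The BXD families were lower by 0.52 log2 units (SE 0.11, 1.43-fold, adjusted p 0.00052). Slc19a2, a thiamine transporter, was lower by 0.40 (SE 0.07, adjusted p 4.85e-05), with medians of 4.79 and 5.13. Its low BXD values reached 4.02, whereas no AXB or BXA family lay under 4.77.

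The remaining lower genes were Slc35f5, the copper importer Slc31a1, the peroxisomal carrier Slc25a17, Slc38a2 and the ADP/ATP exchanger Slc25a5, with differences of -0.27, -0.26, -0.24, -0.22 and -0.17 log2 units. Another Slc31a1 probe set above the threshold differed by -0.026 and had a Pearson r of -0.008 with the brightest one. The other Slc25a5 probe sets differed by -0.21 and -0.12. Higher in BXD were also the cationic amino acid exchanger Slc7a7 (0.25), Slc38a10 (0.25), the potassium and chloride cotransporter Slc12a4 (0.24), Slc22a4 (0.22), the zinc importer Slc39a1 (0.20), Slc44a1 (0.19, and 0.10 without the arrays carrying other organs' markers) and the mitochondrial iron importer Slc25a37 (0.18). The Slc25a37 difference turned to -0.12 with all probe sets of the gene averaged. Where 8.59% of all genes were higher and 6.04% lower, 4 of 10 choline, vitamin and other genes were higher and 1 lower, 3 of 16 ion and bicarbonate genes were higher and 0 lower, and 0 of 13 sugar and monocarboxylate genes passed in either direction. Class medians of the difference lay between -0.01 and 0.11 log2 units.

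The panel difference of 18 of the 23 genes (78.3%) pointed the same way as the difference between the DBA/2J and A/J arrays, against 88.1% of all called genes. The exceptions were Slc38a2, Slc12a4, Slc44a1, Slc8b1 and Slc35b4. Parental arrays took no part in the fit. For the largest differences the parental gap was larger than the panel difference: 0.80 log2 units for Slc46a3, 0.89 for Slc25a42 and -1.07 for Slc38a1.

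**Figure D4:**
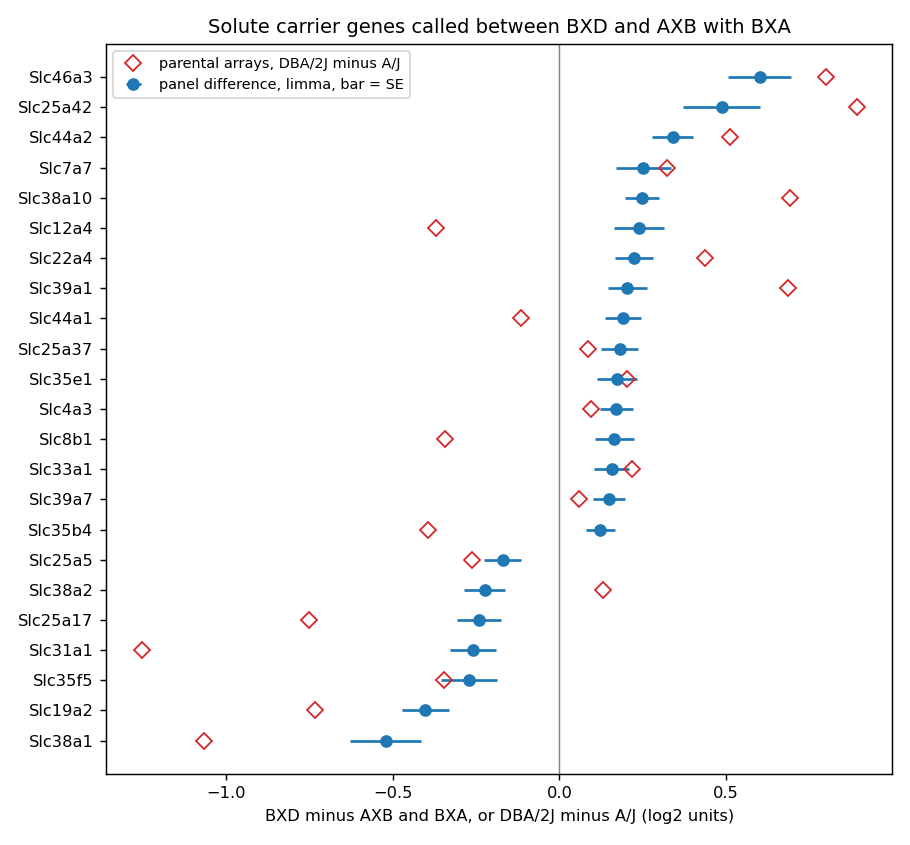
Difference (log2 units, horizontal axis) of the 23 solute carrier genes that passed between BXD and AXB with BXA: filled points are panel differences with SE bars, open diamonds the difference between the single DBA/2J and A/J arrays. Diamonds lie on the side of the point for 18 of 23 genes.

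Several measures moved with this comparison. The Gapdh control difference was the nearest to 0 in BXD, and with it as a covariate 7 of the 23 genes passed (5.34% of the 131, against 5.39% of all genes). The differences of 9 genes then shrank by over 1.5 times, that of Slc31a1 to -0.11, of Slc7a7 to 0.13 and of Slc44a2 to 0.21. Without the arrays carrying markers of another organ 10 passed (7.63%, against 6.55% of all genes), 8 of them among the 23. Slc46a3, Slc44a2, Slc38a1 and Slc19a2 passed under both. The titles of the arrays are numbers of unstated meaning that interleave between these panels. Among the lower numbers 13 genes passed (9.92% of the 131, against 6.81% of all genes). Among the upper numbers 2 passed, Slc46a3 and Slc25a42 (1.53%, against 2.26% of all genes). All 23 differences kept their sign in both, 9 of them shrinking by over 1.5 times among the upper numbers. The endothelial list, with which Slc44a2 had a Spearman rho of 0.43 over 96 families (Pearson r 0.37, adjusted permutation p 0.0012 and 0.0057, r 0.36 without the 2 farthest), had a mean of 7.46 in BXD and 7.21 in AXB and BXA. The atrial list had means of 9.76 and 9.45, and the erythroid list of 8.14 and 8.44. Differences between panel means enter the Slc44a2 correlations and their p-values, because the permutations ignored the panels. The part of these lists in the differences was not tested.

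Between AXB and BXA, reciprocal panels of the same parents, 0 of the 131 genes passed (0.0% of all genes did). At an unadjusted limma p under 0.05 there were 13 of the 131 and 786 of all 7513 genes, and limma with a trended, robust variance also gave 0.

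BXH was set against each of the other groups. These comparisons share the BXH arrays, and BXD or AXB with BXA enter 2 of them, so their values are given side by side and not as support of each other. BXH title numbers run from 3 to 394 and those of BXD from 473 to 670, so the order of the titles and the panel cannot be told apart. BXH also had 8 of 11 arrays with markers of another organ, a mean of the airway list of 6.99 log2 units against 4.37 in BXD and 4.44 in AXB and BXA, and a mean of the macrophage list of 6.22 against 5.69 and 5.72. The erythroid list had means of 8.72, 8.14 and 8.44 in the same order, and the brown fat list of 8.65, 8.11 and 8.17. Their part in the results was not tested beyond leaving out the arrays. That leaves 3 BXH strains, and limma then called 0 of the 131 genes against BXD, AXB with BXA, or the classical strains. Of all genes, 0.799%, 0.306% and 0.0133% were called. An unadjusted limma p under 0.05 was found for 22, 5 and 7 of the 131 (16.8%, 3.82% and 5.34%). For all genes the unadjusted shares were 14.4%, 9.56% and 5.70%. Against BXD, 1 of the 14 differences called with all arrays shrank by over 1.5 times or turned, and Slc46a3, Slc44a2, Slc38a1 and Slc41a3 stood at -0.52, -0.42, 0.52 and 0.61 log2 units.

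Against BXD, 14 of the 131 genes passed, which is 10.7%, against 10.6% of all genes: 5 higher in BXH (4.3% of all genes) and 9 lower (6.34%). Slc46a3 ran from 5.21 through 5.68 to 6.03 in BXH, where BXD ran from 5.76 to 7.26, and was lower by 0.65 log2 units (SE 0.10, 1.57-fold, adjusted p 4.34e-05). Slc44a2 (-0.40), Slc25a51 (-0.36), the glucose transporter Slc2a1 (-0.36), Slc22a4 (-0.29), the potassium and chloride cotransporter Slc12a7 (-0.27), Slc35e1 (-0.26), the creatine transporter Slc6a8 (-0.25) and the ornithine carrier Slc25a15 (-0.25) were lower too. Slc41a3 was the most raised. It ran from 6.46 through 7.04 to 7.46 in BXH and from 5.70 through 6.24 to 7.56 in BXD, a difference of 0.67 (SE 0.14, 1.59-fold, adjusted p 0.0020). Slc38a1 (0.51), Slc25a17 (0.49), Slc19a2 (0.33) and the monocarboxylate family member Slc16a11 (0.22) were also higher, and the last of these was -0.052 without the arrays carrying other organs' markers. The sign matched that of the C3H/HeJ and DBA/2J arrays for 12 of 14 genes (85.7%, against 70.5% of all called genes).

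Slc41a3 had a Spearman rho of 0.35 with the macrophage list over 96 families (Pearson r 0.34, adjusted permutation p 0.0086 and 0.013, r 0.37 without the 2 farthest), and that list was highest in BXH. With the endothelial list, at 7.27 in BXH and 7.46 in BXD, its rho was -0.31 (Pearson r -0.34, adjusted permutation p 0.045 and 0.013, r -0.33 without the 2 farthest). The permutations ignored the panels, so differences between panel means enter these correlations and their p-values. The part of either list in the panel difference was not tested. The Slc25a51 difference turned to 0.041 log2 units when all probe sets of the gene were averaged.

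Against AXB and BXA, 4 genes passed (3.05%, against 6.52% of all genes), 1 higher in BXH (3.18% of all genes) and 3 lower (3.34%). Slc25a26 was higher in BXH by 0.35 log2 units (SE 0.09, adjusted p 0.014), and Slc35f5 (-0.42), Slc2a1 (-0.33) and the mitochondrial basic amino acid carrier Slc25a29 (-0.27) were lower. Slc25a26 had a Spearman rho of 0.30 with the cardiac fibroblast list over 96 families (Pearson r 0.42, adjusted permutation p 0.045 and 0.00068, r 0.37 without the 2 farthest). That list had a mean of 8.65 in BXH and 8.42 in AXB and BXA, and its part in the difference was not tested. Panel means enter these correlations too, as the permutations ignored the panels. Slc35f5, which resembles nucleotide sugar transporters, ran from 7.33 through 7.71 to 8.11 in BXH and from 7.44 through 8.18 to 8.53 in AXB and BXA. It was also the 1 gene that passed against the classical strains, which ran from 7.55 through 8.32 to 9.04 (0.763%, against 0.293% of all genes, 0.213% being lower and 0.0799% higher). There it was lower by 0.58 log2 units (SE 0.12, adjusted p 0.019). Without the arrays carrying other organs' markers the Slc35f5 differences were -0.11 and -0.32. All 3 groups overlapped. Against AXB and BXA, 3 of the 4 differences had the sign of the C3H/HeJ and A/J arrays (75%, against 83.7% of all called genes).

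A list of 42 genes, here called transport partners, was set beside these carriers, and 28 were on the array and tested. It holds genes of proteins that work beside the carriers, other transporters, and Slc8a1, Slc2a4 and Slc4a1, the solute carriers left out by name. The share called was 21.4% between BXD and AXB with BXA (14.6% of all genes), 10.7% between BXH and BXD (10.6%) and 10.7% between BXH and AXB with BXA (6.52%). Between BXD and AXB with BXA, 4 were higher, the glucose transporter Slc2a4 (0.14 log2 units), the carnitine palmitoyltransferase Cpt2 (0.13), the sodium pump regulator Fxyd1 (0.10) and the hepcidin gene Hamp (1.72), and 2 lower, the sodium and calcium exchanger Slc8a1 (-0.27) and the mitochondrial pyruvate carrier subunit Mpc1 (-0.13). Hepcidin binds ferroportin and leads to its removal from the membrane. The Hamp means were 8.52 in BXD and 6.80 in AXB and BXA, while those of Slc40a1 were 8.43 and 8.44. In BXH against BXD, Slc8a1 was higher (0.46), and Slc2a4 (-0.23) and the outer membrane channel gene Vdac3 (-0.12) lower. In BXH against AXB and BXA, the organic anion transporter Slco3a1 was higher (0.31), and Vdac2 (-0.12) and Vdac3 (-0.16) lower. In the other 2 comparisons limma called 0 of the 28, while 5 between AXB and BXA (17.9%, against 10.5% of all genes) and 3 between BXH and the classical strains (10.7%, against 11.3%) had an unadjusted p under 0.05.

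CAST/EiJ, a wild-derived strain with 1 array, lay more than 0.5 log2 units outside the range of the 28 classical strains for 17 of the 131 genes, 13 above and 4 below, which is 12.98%, against 6.6% of all genes. The share above was 9.92% against 3.19% of all genes, and the share below 3.05% against 3.41%. Its liver list, at 10.46, and its fast skeletal muscle list, at 9.67, were the highest of the 99 arrays, its airway list at 9.22 ranked 6, and its heart muscle list at 12.68 was the lowest. The part of other organs' RNA in these values was not tested.

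Several of the solute carriers that stood furthest above the classical strains in CAST/EiJ are known from liver. Slc25a47, a liver mitochondrial carrier, was at 9.68, where the classical strains ran from 3.08 to 3.82. Slc27a2 was at 10.31 (classical highest 5.82), the ornithine carrier Slc25a15 at 7.60 (4.33), the amino acid transporter Slc38a4 at 8.39 (5.54) and the glucose 6-phosphate translocase Slc37a4 at 7.81 (6.13). Slc25a25, an ATP-magnesium and phosphate carrier, was at 6.95 (4.37). On the 12 arrays with raised liver markers, CAST/EiJ among them, Slc25a47 had a median of 4.59 against 3.48 on the other 87, whose highest was 3.98. It had a Pearson r of 0.74 and a Spearman rho of 0.49 with the liver list. Both stood at the smallest permutation p of 1e-05 (adjusted 0.00040 and 0.00059), and r was 0.79 without the 2 farthest families. Slc25a47 passed the level threshold through its high arrays. It was also picked for its level in CAST/EiJ, the array with the highest liver list. That choice favoured a relation with the liver list, so these p-values are not an independent test of it. On the same 12 and 87 arrays, Slc38a4 had medians of 5.61 and 4.29, and Slc25a15 of 4.43 and 4.10. Over the 85 families without raised liver markers, r and rho with the liver list were 0.36 and 0.38 for Slc25a47 (permutation p adjusted over 6 genes 0.0039 and 0.0016), 0.25 and 0.19 for Slc25a15 (0.045 and 0.11), 0.07 and 0.16 for Slc37a4 (0.55 and 0.18) and -0.11 and -0.14 for Slc38a4 (0.37 and 0.22). The part of the liver gene Cyp2e1 in these values was not tested.

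Below the classical range in CAST/EiJ were Slc35f6, Slc12a7, Slc25a26 and Slc38a10, at 5.30, 7.17, 4.72 and 7.57 log2 units. Their distances from the lowest classical strain were 0.76, 0.73, 0.63 and 0.62, and these 4 are named because they are the whole lower set. B6cC3-1/KccJ lay outside the classical range by that margin for 0 of the 131 genes (0.0266% of all genes).

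**Figure D5:**
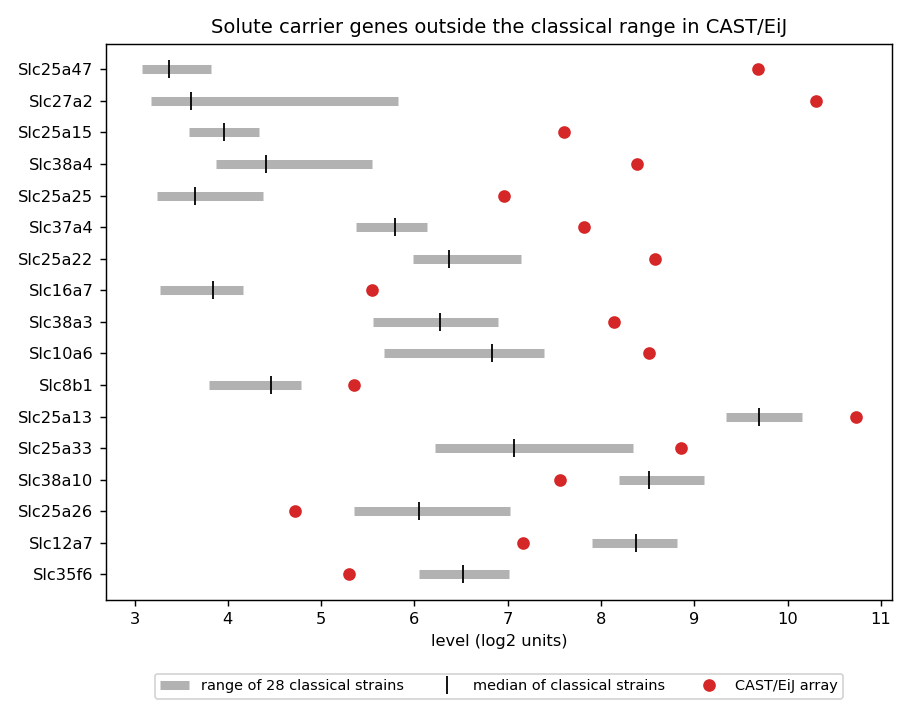
Level (log2 units, horizontal axis) in CAST/EiJ (red points) of the 17 solute carrier genes more than 0.5 log2 units outside the range of the 28 classical strains (grey bars, black tick at the median). Slc25a47 lies furthest out, at 9.68 against a classical highest of 3.82, and 4 genes lie to the left of their bar. Slc25a47 passed the level threshold through its high arrays.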

How the data were processed

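The table that the authors deposited holds log2 values of 22416 probe sets on 99 arrays (89 probe sets are controls). They were made with GCOS and RMA, per the submitters' processing notes, which give no versions. RMA normalises by quantiles, and array medians lay between 3.97 and 4.07. No scanner values were used here, and the number of arrays limits the precision. The per-sample age label rises with the sample order and was not used.

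Groups came from the strain labels. Gene symbols came from the platform annotation: 17783 probe sets had 1 symbol and 284 several, which were not named. All 131 genes matched RefSeq, and 0 symbols changed. Of them 75 had 1 probe set and 56 several. A gene passed the threshold on its mean over all 99 arrays. Differences between panels were fitted in R 4.3.3 by limma 3.58.1 with eBayes, two-sided, each fit holding only its own groups. Python 3.11.15, numpy 2.4.6, scipy 1.17.1 and pandas 2.3.3 did the rest, and correlations with marker lists used 100000 permutations. These moved values among all families entered, without regard to panel, so differences between panels can contribute to their p-values. On simulated data limma recovered 80.6%, 98.5% and 98.5% of changes of 0.25, 0.5 and 1 log2 units between BXD and AXB with BXA, over 7513 genes with 6 false calls. Changes of 0.25 were recovered for 35.8% between AXB and BXA, with 16 false calls, and for 46.3% to 53.7% in the BXH comparisons, with 8. The simulation drew independent normal values for each gene, without other organs' markers or differences in RNA integrity. Its figures therefore do not give the error rates in the real arrays.

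Named genes were the 10 brightest, the 12 of largest and 6 of smallest SD, up to 10 called genes per direction and comparison, up to 8 segregating per panel, up to 6 in CAST/EiJ, those next to the threshold, called partners and up to 2 per class. Others were chosen after their values were seen, as were the best splits, the relations with marker lists, the split by raised liver markers and the promoter motifs. The genes and lists were chosen with earlier results of these data known. Alternatives varied the filter, the probe set, the averaging of near-isogenic strains, the arrays, the control covariates, the centring, the variance model and the margins.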

Additional observations from a re-analysis of the deposited data

Results flagged for a closer look

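Among the 118 solute carrier genes at or below the level threshold, which enter no comparison, 4 rose on a single array far above their usual level. Slc27a5, a bile acid and fatty acid CoA ligase, had a level of 8.36 log2 units in CAST/EiJ against a median of 3.34 over the 99 arrays. Slc10a1, the hepatic bile acid importer, had 8.11 in CAST/EiJ against a median of 3.36. Slc34a2, a phosphate transporter of lung epithelium, had 7.46 in AXB1/PgnJ, the array with the highest airway list (10.69), against a median of 3.36. Slc2a2, the glucose transporter GLUT2, had 6.09 in BXD12/TyJ, whose liver list was at 9.92, against a median of 3.09.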

How the results depend on the processing

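The 23 genes passing between BXD and AXB with BXA became 10 without arrays carrying markers of another organ, 7 with the Gapdh and 12 with the actin control difference as a covariate, and 13 and 2 among lower and upper title numbers. The 14 in BXH against BXD became 0 without those arrays (0.799% of all genes) and 8 with the Gapdh covariate (6.11%, against 6.83% of all genes). The 4 against AXB with BXA and the 1 against the classical strains became 0 without those arrays, where only 3 BXH strains remain. Of all genes 0.306% and 0.0133% passed there. In AXB against BXA limma gave 0 under every alternative run, with 7 to 16 genes at an unadjusted p under 0.05. The 7 are of only 72 genes above the 60th percentile of probe-set means. As shares of the solute carrier genes tested, these counts lay between 8.40% and 12.2%. For all genes the shares lay between 6.51% and 12.5%. The median SD of 0.254 was 0.218 with probe sets averaged and 0.230 from the median absolute deviation. With a parental difference of 0.5 log2 units, 23, 10 and 19 genes segregated in BXD, AXB with BXA, and BXH, and with 1.5 log2 units 0, 0 and 1. With 30% on each side 0 remained in BXD, and without the arrays carrying other organs' markers 1 in BXH. In CAST/EiJ the 17 genes became 43 at a margin of 0 and 10 at a margin of 1 log2 unit. The segregation and CAST/EiJ counts at these other settings stand without the share over all genes, so they describe only the solute carrier genes. Of 413 differences of single genes, 294 kept direction and call, 116 kept the direction only and 3 reversed: Slc25a37 between BXD and AXB with BXA to -0.12 and Slc25a51 between BXH and BXD to 0.041 with probe sets averaged, and Slc16a11 between BXH and BXD to -0.052 without the arrays carrying other organs' markers. The cause of these changes was not tested, beyond the smaller number of strains where arrays were left out. No paired analysis was possible because each strain has 1 array and the labels give no shared replicate numbers.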
